A study of Glycine max with 12 samples.

Results

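The genes described here are 10 listed soybean (Glycine max) genes of the flavonol and anthocyanin branch of flavonoid synthesis, out of 56877 genes in a table of root RNA-seq counts. The rule is a list of identifiers and uses no measured value, though it was drawn up with earlier results of these data known. The list names Glyma.02G048400 and Glyma.02G048600 as F3H, Glyma.06G202300 as F3'H, Glyma.13G072100 as F3'5'H, Glyma.13G082300 as FLS1, Glyma.14G072700 and Glyma.17G252200 as DFR, Glyma.01G214200 and Glyma.11G027700 as ANS and Glyma.08G062000 as ANR1. The count table holds no names. The RefSeq gene table for assembly Glycine_max_v4.0 matched 0 of its identifiers, so these names are those of the list. That table does hold genes with the symbols ANS2 on chromosome 1, F3H on 2, SF3'H1 on 6, ANR1 on 8, ANS3 on 11, FLS1 on 13, DFR1 on 14 and DFR2 on 17. Those are the chromosomes in the identifiers of the listed genes of the same steps. No gene with the symbol F3'5'H was found there, so the name of Glyma.13G072100 has no such match.

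Roots of 2 genotypes, labelled WT and OX, were compared without aluminium (CK, 0 µM AlCl3) and with 50 µM AlCl3 (Al), in a study that looked for candidate genes of aluminium tolerance. Each of the 4 groups (WT_CK, WT_Al, OX_CK and OX_Al) had 3 libraries. What OX means, the age of the roots and the length of treatment are not in the labels. Nor do they say if replicates were separate plants, so the p-values cover only library-to-library spread, part of which may be technical. Library totals ran from 15923413 to 18399566 counts. In a whole root, fewer cells of a type and less RNA per cell cannot be told apart.

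Flavonoid synthesis starts from phenylalanine and passes through chalcones to flavanones. F3H, flavanone 3-hydroxylase, turns flavanones into dihydroflavonols, and F3'H and F3'5'H add hydroxyl groups to the B ring, which sets the type of pigment. From the dihydroflavonols, flavonol synthase (FLS) makes flavonols, while dihydroflavonol reductase (DFR) and anthocyanidin synthase (ANS) lead to anthocyanidins, which anthocyanidin reductase (ANR) turns into the flavan-3-ols that condensed tannins are built from. Legume roots are known above all for isoflavonoids, which leave the pathway at the flavanone, before F3H.

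The listed genes had very few reads in these roots, with and without aluminium and in both lines. The 10 genes together held 1099 of 207508050 counts, which is 0.00053%. Their sum was 57, 88 and 189 counts in the WT_CK libraries, 82, 75 and 164 in WT_Al, 55, 60 and 89 in OX_CK, and 64, 99 and 77 in OX_Al. The 4 groups overlapped in this sum, and in WT the highest library in each treatment was replicate 3. FLS1 alone gave 47.5% of the sum. Only 4 of the 10 genes, F3'H, F3'5'H, FLS1 and ANR1, had enough counts to be tested, 4 more had a few counts, and the DFR genes had none.

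**Figure D1:**
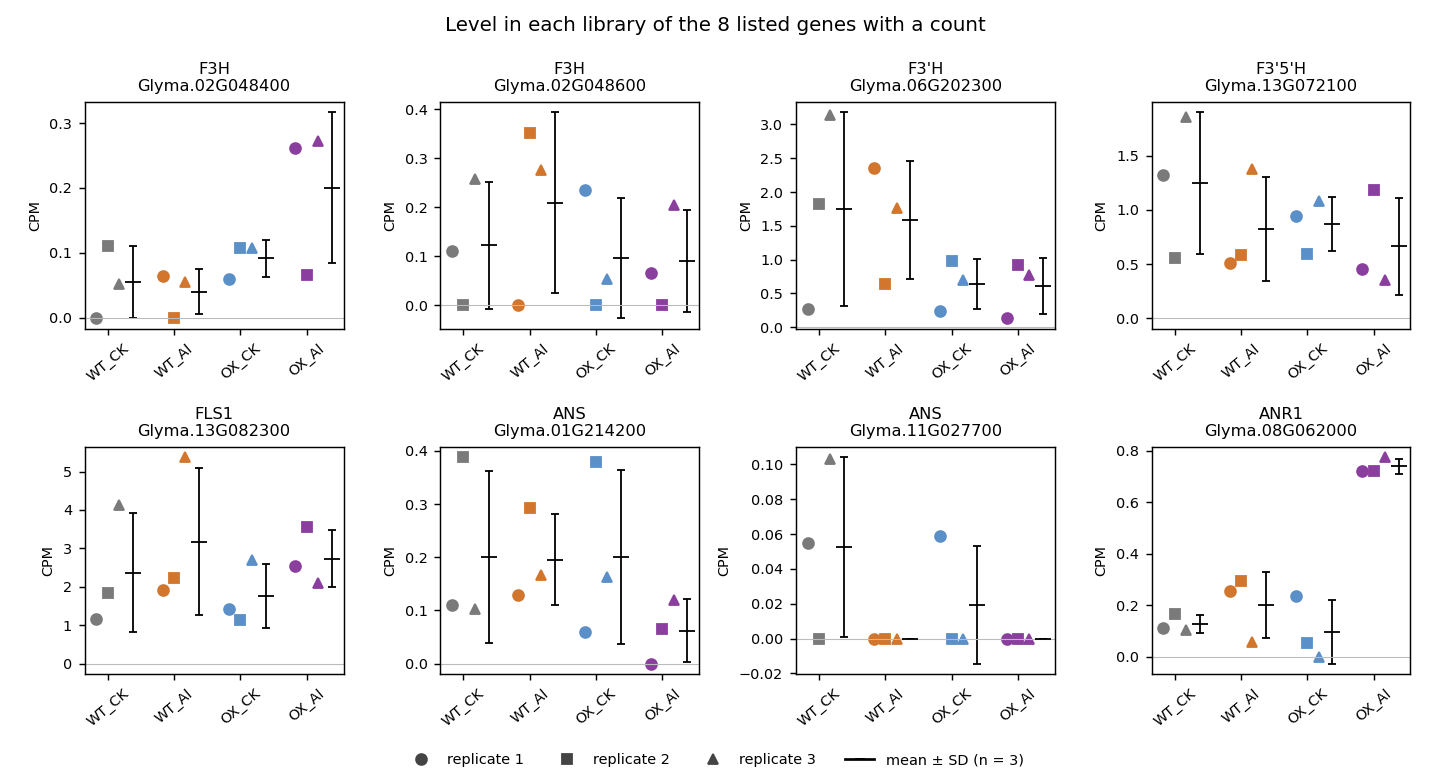
Level of each of the 8 listed genes with a count, as CPM (reads scaled to library size by TMM, the vertical axis, which differs between panels), in the 12 libraries of the 4 groups. Symbols mark the replicate number, and black bars show the mean ± SD (n = 3). ANR1, at 0.739 ± 0.0306 CPM in OX_Al, passed the low-count filter only through that group. Its OX_Al libraries lie above the others, but the share of all tested genes with such a separation was not computed. For FLS1, F3'H and F3'5'H all 4 groups overlap.

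Read support was low even for the best covered member. FLS1 averaged 2.50 CPM over the 12 libraries, and the median of the 37170 tested genes was 11.2 CPM. Of the tested genes, 20.2% had fewer reads, as CPM, than FLS1, 10.3% fewer than F3'H, 7.89% fewer than F3'5'H and 0.151% fewer than ANR1. These shares compare reads and not transcripts, because gene lengths could not be tied to the identifiers. Genes without any count, as both DFR genes were, made up 17.2% of the table.

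**Figure D2:**
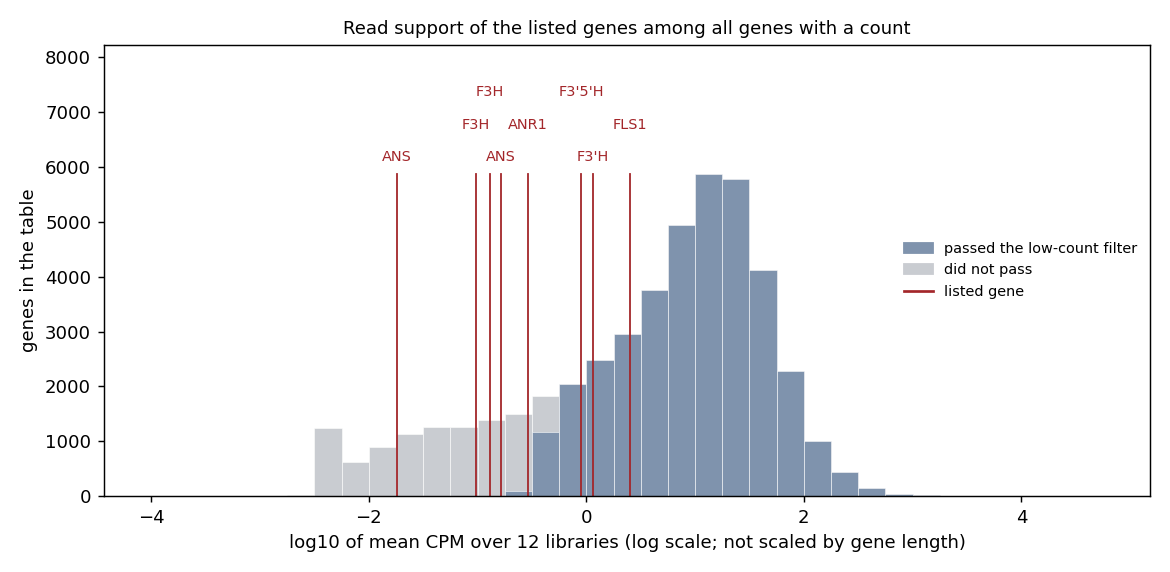
Number of genes (vertical axis) by mean CPM over the 12 libraries (horizontal axis, log10, not scaled by gene length) for all genes with a count, with those that passed the low-count filter in blue. Red lines mark the 8 listed genes with a count, from ANS at 0.0181 CPM to FLS1 at 2.50 CPM, all to the left of the peak of the tested genes, whose median was 11.2 CPM.

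The entry step, F3H, was barely detected. Glyma.02G048400 had 0, 2 and 1 counts in WT_CK, 1, 0 and 1 in WT_Al, 1, 2 and 2 in OX_CK, and 4, 1 and 4.58 in OX_Al, where all 3 libraries were at or above the highest WT_Al count of 1. Glyma.02G048600 had 2, 0 and 5 counts in WT_CK, 0, 6 and 5 in WT_Al, 4, 0 and 1 in OX_CK, and 1, 0 and 3.42 in OX_Al. Neither gene passed the low-count filter. The 2 values that are not whole fall in the same library, OX_Al replicate 3, and add to 8, so how reads were divided between these genes is uncertain and their sum is the firmer value.

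Summed over the pair, the F3H counts were 2, 2 and 6 in WT_CK, 1, 6 and 6 in WT_Al, 5, 2 and 3 in OX_CK, and 5, 1 and 8 in OX_Al. All 4 groups overlapped. The ratio of Al to CK from these sums was 1.42 in WT, with a 95% exact counting interval of 0.577 to 3.63, and 1.60 in OX, with an interval of 0.661 to 4.02. These intervals cover counting error only and leave out the spread between libraries, so they are too narrow. Even so, they leave room for a rise of a few fold and a smaller fall. The balance within the pair, as the log2 ratio of Glyma.02G048400 to Glyma.02G048600 with 0.5 added to each count, changed with Al by -0.71 in WT and by 0.69 in OX, a mean of -0.01 (exact two-sided permutation test within lines, p = 1.0, adjusted p = 1.0 over the 2 pairs computed). Between lines under Al, Glyma.02G048400 had 10 counts in OX against 2 in WT after rounding, 5.37 times as many after scaling (counting interval 1.14 to 50.4). Fitted without a low-count filter, that difference was a log2 fold change of 2.24 ± 1.02 (SE, edgeR adjusted p = 0.345), which does not pass, and the summed pair had a ratio of 1.16 (counting interval 0.504 to 2.67). Glyma.02G048500, whose identifier lies between them, had no count in any library.

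The B-ring hydroxylases were read in every library and varied widely within groups. F3'H, Glyma.06G202300, had 5, 33 and 61 counts in WT_CK, 37, 11 and 32 in WT_Al, 4, 18 and 13 in OX_CK, and 2, 14 and 13 in OX_Al. Replicate 1 was the lowest library of WT_CK, OX_CK and OX_Al and the highest of WT_Al. Between libraries of a group the counts differed by up to 12.2 times, in WT_CK. The mean was 1.75 ± 1.44 CPM in WT_CK and 1.59 ± 0.873 in WT_Al (SD, n = 3), and 0.637 ± 0.375 in OX_CK and 0.609 ± 0.42 in OX_Al.

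F3'H did not pass the test for Al in either line. Its log2 fold change with Al was -0.14 in WT (95% interval -1.79 to 1.5, edgeR adjusted p = 0.90) and -0.07 in OX (-1.99 to 1.85, adjusted p = 0.957). Its means were lower in OX than in WT in both treatments, at log2 fold changes of -1.44 ± 0.808 (SE) without Al and -1.37 ± 0.832 with it. Neither passed (adjusted p = 0.436 and 0.491), and the libraries of the lines overlapped in both treatments. In CK the lowest WT library, at 5 counts, lay inside the OX range of 4 to 18, and in Al the WT library with 11 counts lay inside the OX range of 2 to 14. Between CK libraries of the same replicate number, F3'H was lower in OX in 3 of 3 pairs, at 0.235 against 0.274, 0.976 against 1.83 and 0.702 against 3.14 CPM. The first of these was 4 against 5 counts. The labels do not state a pairing, and the share of all genes with 3 of 3 pairs in 1 direction was not computed. With the replicate number as a block, the log2 fold change in CK was -1.32 (adjusted p = 0.389), which did not pass either.

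F3'5'H, Glyma.13G072100, adds hydroxyl groups at 2 ring positions and is tied in soybean to purple flower colour. It had 24, 10 and 36 counts in WT_CK, 8, 10 and 25 in WT_Al, 16, 11 and 20 in OX_CK, and 7, 18 and 6 in OX_Al. All groups overlapped. The mean with Al was the smaller in both lines, at 0.827 ± 0.484 CPM against 1.24 ± 0.654 in WT and 0.666 ± 0.45 against 0.872 ± 0.249 in OX (SD, n = 3). The log2 fold changes of -0.58 ± 0.564 and -0.39 ± 0.597 (SE) did not pass (edgeR adjusted p = 0.452 and 0.632), with intervals from -1.80 to 0.65 and from -1.69 to 0.91.

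FLS1, Glyma.13G082300, makes flavonols from dihydroflavonols and had the most counts of the 10 genes. It had 21, 33 and 80 counts in WT_CK, 30, 38 and 97 in WT_Al, 24, 21 and 50 in OX_CK, and 39, 54 and 35 in OX_Al. Replicate 3 was the highest library of 3 groups and the lowest of OX_Al, and all groups overlapped. In WT the mean was 2.37 ± 1.56 CPM without Al and 3.17 ± 1.91 with it, and in OX 1.75 ± 0.834 and 2.73 ± 0.748 (SD, n = 3).

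With Al, FLS1 was at log2 fold changes of 0.42 ± 0.517 (WT) and 0.64 ± 0.534 (OX), each ± SE, and neither passed (edgeR adjusted p = 0.554 and 0.372). The 95% intervals, on the fold scale, ran from 0.613 to 2.92 in WT and from 0.694 to 3.48 in OX. They leave room for rises up to their upper ends and for smaller falls. The smallest change that could be detected was not computed. By replicate number, FLS1 was higher with Al in 3 of 3 WT pairs, at 1.92 against 1.15, 2.23 against 1.83 and 5.37 against 4.12 CPM, and with the number as a block its log2 fold change in WT was 0.44 (adjusted p = 0.396). Such pairs went both ways for F3'H, F3'5'H and ANR1 with Al in WT. They also went both ways for FLS1, F3'5'H and ANR1 between lines in CK. The share of all genes with 3 of 3 pairs in 1 direction was not computed. Between lines, FLS1 had log2 fold changes of -0.44 in CK and -0.22 in Al (adjusted p = 0.777 and 0.906). Its Al response differed between OX and WT by 0.21 (interval -1.40 to 1.83, adjusted p = 0.941).

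The listed genes for the step from dihydroflavonols towards anthocyanidins were not detected. Glyma.14G072700 and Glyma.17G252200, listed as DFR, had 0 counts in all 12 libraries. For each gene, a count of 0 allows up to 0.0144 CPM over the 12 libraries (3 counts), and up to 0.0539 (WT_CK), 0.0591 (WT_Al), 0.0556 (OX_CK) or 0.0635 CPM (OX_Al) within a group. These limits cover counting error only. The gene next to Glyma.17G252200 in the table, Glyma.17G252100, had 801 to 1783 counts per library. Glyma.17G252300, on the other side of Glyma.17G252200, had none. Beside Glyma.14G072700, Glyma.14G072600 had 0 to 8 counts per library and Glyma.14G072800 had none.

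ANS, the enzyme after DFR, had few counts. Glyma.01G214200 had 2, 7 and 2 counts in WT_CK, 2, 5 and 3 in WT_Al, 1, 7 and 3 in OX_CK, and 0, 1 and 2 in OX_Al. Its sum was 3 counts in OX_Al and 10 or 11 in each of the other groups, and in counts the OX_Al libraries overlapped those of OX_CK and met the lowest of WT_CK and WT_Al, at 2. The ratio of OX_Al to OX_CK was 0.312 (95% exact counting interval 0.0558 to 1.18), and that of WT_Al to WT_CK was 0.996 (0.379 to 2.58). Both intervals leave out the spread between libraries. Without a low-count filter, its log2 fold change with Al in OX was -1.55 ± 1.01 (SE, edgeR adjusted p = 0.283). Glyma.11G027700 had 4 counts in all, of which 3 fell in WT_CK and 1 in OX_CK, and no fold is given for it. Since it had no count in the Al libraries, the balance within the ANS pair was computed but is not interpreted. None was computed for the DFR pair, which had no counts.

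ANR1 was the only member that passed a test, for Al in OX, where 36.4% of all tested genes passed. Glyma.08G062000, listed as the reductase that makes epicatechin-type flavan-3-ols, had 2, 3 and 2 counts in WT_CK, 4, 5 and 1 in WT_Al, 4, 1 and 0 in OX_CK, and 11, 11 and 13 in OX_Al. The 3 OX_Al libraries were above every other library, and the other 3 groups overlapped. The share of all tested genes with such a separation was not computed, and ANR1 passed the low-count filter only through OX_Al. The separation is therefore a description only. Mean levels in WT were 0.126 ± 0.0348 CPM without Al and 0.201 ± 0.128 with it, and in OX 0.0964 ± 0.123 and 0.739 ± 0.0306 (SD, n = 3). The exact Poisson interval of the OX_Al level was 0.516 to 1.03 CPM.

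In OX, ANR1 rose with Al by a log2 fold change of 2.89 ± 0.738 (SE, edgeR adjusted p = 0.00954), a fold of 7.42 with a 95% interval of 2.44 to 22.6. It was the single listed gene called in that comparison, where 36.4% of all tested genes were called and 21.2% rose. It passed the low-count filter only through OX_Al, and without the filter the adjusted p was 0.0128. The size rests on the 5 counts of OX_CK, 4 of them in replicate 1, and without that library the log2 fold change was 4.44 (adjusted p = 0.00425). The call held without any 1 of the 12 libraries, with adjusted p-values up to 0.04.

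The ANR1 response was not shown to differ between the lines. In WT its log2 fold change with Al was 0.63 ± 0.813 (SE, edgeR adjusted p = 0.577), and the difference of the responses was 2.27 ± 1.15 (interval -0.24 to 4.77, adjusted p = 0.472), which did not pass. Under Al, ANR1 was at a log2 fold change of 1.86 ± 0.665 in OX against WT (interval 0.41 to 3.31). This had an unadjusted p of 0.0161 by edgeR and did not pass over all genes (adjusted p = 0.153). In CK the value was -0.40 ± 0.906 (adjusted p = 0.888). These comparisons share libraries, so their values are not independent.

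**Figure D3:**
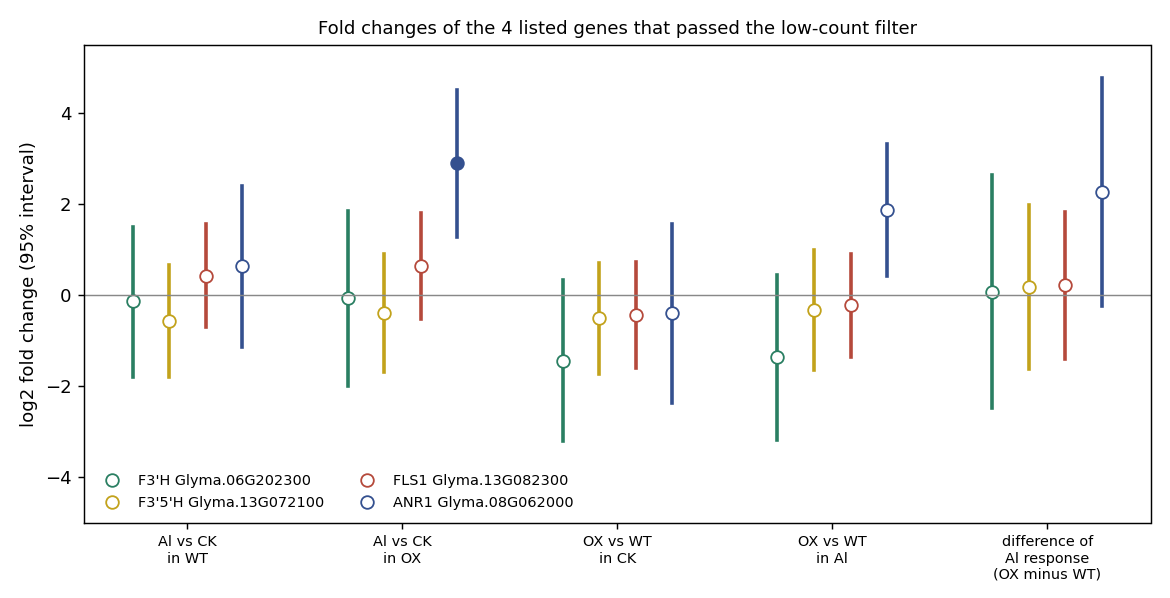
Log2 fold changes (vertical axis) with 95% intervals of the 4 listed genes that passed the low-count filter, in 5 comparisons (horizontal axis). Filled points passed the edgeR test at an adjusted p under 0.05. Only ANR1 with Al in OX, at 2.89, is filled, and the interval of ANR1 in OX against WT under Al, from 0.41 to 3.31, also lies above 0.

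Counted over the comparisons, 0 of the 4 tested genes were called for Al in WT, where 37.4% of all tested genes were called, and 1 of 4 in OX. None was called between the lines in CK (background 4.43%) or in Al (6.07%), or for the difference of the Al response (1.63%). Across these 4 comparisons without a call, edgeR gave 1 unadjusted p under 0.05, that of ANR1 in OX against WT under Al, and the DESeq2 Wald test called 0. The median log2 fold change of the 4 genes was 0.14 with Al in WT and 0.28 in OX, beside -0.04 and -0.02 over all tested genes. With 4 genes, shares such as these say little beyond the single values.

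The spread between libraries limits FLS1 and the hydroxylases more than counting does. edgeR's biological coefficient of variation was 0.654 for F3'H, 0.433 for F3'5'H and 0.431 for FLS1. The medians of the tested genes within 0.5 log2 CPM of each were 0.317, 0.335 and 0.263. ANR1, at 0.291, was below its own median of 0.397. It passed the low-count filter only through OX_Al, and few genes at its mean level passed, so this says little about its spread. The 3 more variable genes did not move closely together. Over the 12 libraries the Pearson correlation of log2(CPM + 1) was 0.46 between F3'H and FLS1, 0.49 between F3'5'H and FLS1, and 0.27 between F3'H and F3'5'H. These correlations are descriptions over libraries that share depth and replicate structure.

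For each tested member, the tested gene with the most similar pattern was found by the same correlation over the 12 libraries. ANR1 was most like Glyma.17G258200 (r = 0.977), which averaged 31.3 ± 9.11 CPM in WT without Al, 48.0 ± 27.0 in WT with Al, 25.9 ± 10.5 in OX without Al and 356.0 ± 27.9 in OX with Al (SD, n = 3). Because that gene was picked for its likeness to ANR1 in these same libraries, its highest mean in OX_Al adds no support to the ANR1 pattern. FLS1 was most like Glyma.05G077100 (r = 0.962), F3'5'H most like Glyma.14G066600 (r = 0.914) and F3'H most like Glyma.11G213500 (r = 0.90). Each is the best of 37170 tested genes, so a high value is no sign of a tie, and the files give these genes no name.

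The genes beside the members in the table, chosen after the values were seen, ranged from no count to many. Of the 19 neighbours, 9 averaged at least 1 CPM and 5 had no count. Glyma.02G048700, beside F3H, had 373 to 1671 counts per library, and Glyma.13G082200 and Glyma.13G082400, on either side of FLS1, had 214 to 379 and 133 to 211. Beside ANR1, Glyma.08G061900 had 50 to 91 counts and Glyma.08G062100 had 0 to 4. RefSeq places ANR1 and ANR2 on chromosome 8, but ANR2 could not be tied to an identifier.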

How the data were processed

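RNA-seq counts of 12 soybean root libraries were used. They come from a single table in which the authors gave estimated counts by gene, unscaled, per the file headers. There, 13.25% of the values are not whole (tolerance 1e-06), and 8 rows without values were left out. The submitters' processing notes name HTSeq 0.6.0, HISAT2 2.1.0 and Bowtie2 2.2.3, and also TopHat2 and CASAVA, without roles. The build, strand setting and source of the decimals were not given in the sources used here, so reads of overlapping or antisense genes cannot be told apart.

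Values were rounded, because the test had been written for counts and they were estimated counts. Genes passed filterByExpr (minimum count 10, minimum total 15), TMM set the scaling, and 1 mean per group was fitted to all libraries in edgeR 4.0.16 (R 4.3.3), with robust two-sided quasi-likelihood tests. A call needed an adjusted p (Benjamini-Hochberg, 37170 genes) under 0.05. Each standard error (SE) was derived from the F statistic and is approximate. CPM (counts scaled to library size) uses TMM-scaled totals. Counting intervals are 95% exact Poisson or binomial intervals of counts pooled over the libraries of a group, and leave out the spread between libraries. The code was run on simulated counts as a check. Its settings did not match the spread and low counts of the listed genes, so it says nothing about what could be detected for them. DESeq2 1.42.0, its size factors, no filter, a replicate block, fits of the compared groups alone and each library left out were the alternatives.

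The members and lists were chosen with earlier results of these data known. All 10 members are named, with the gene between the F3H identifiers and the best correlated gene of each tested member. The planned pathway list, tissue marker check and promoter search needed names or sequences tied to identifiers and were not run. Same-numbered libraries deviated together, with correlations of 0.172, 0.293 and 0.416 between WT treatments and 0.485, 0.176 and 0.686 between the CK groups, all over 0.1, which met the rule for pairing, on the data alone. The tests printed do not use the pairing unless a block is named. Between OX treatments (0.29, -0.0187, 0.221) and between the Al groups (0.0352, -0.154, 0.0137) it was not met.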

Additional observations from a re-analysis of the deposited data

How the results depend on the processing

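The counts of listed genes called, 1 for Al in OX and 0 in the other 4 comparisons, were the same under every alternative run. The replicate block changed no call of a listed gene. ANR1 with Al in OX kept its direction and call, with log2 fold changes from 2.32 to 4.44. Of 333 single-gene values under alternatives, 308 kept their direction and side of the threshold and 25 changed sign, none of them called; the cause was not tested. With the replicate block F3'H moved to 0.21 with Al in WT and to -0.31 for the difference of the responses. Leaving out 1 library gave F3'H log2 fold changes of -0.65 to 0.59 with Al in WT, -0.48 to 0.40 with Al in OX and -0.67 to 0.57 for the difference. F3'5'H ran from -1.03 to 0.27 in OX against WT under Al and from -0.52 to 0.78 for the difference. FLS1 ran from -0.20 to 1.09 with Al in WT, from -0.90 to 0.23 between lines in CK, from -0.48 to 0.39 under Al and from -0.46 to 0.83 for the difference, and ANR1 from -1.95 to 0.17 between lines in CK. The change of the F3H log2 ratio with Al, which rests partly on the pseudocount, became 0.000466 with a pseudocount of 1 and ran from -0.74 to 0.73 with 1 library left out. The same change for the ANS pair was 0.19, became 0.0283 with a pseudocount of 1 and ran from -0.37 to 0.78; it rests on the added pseudocount, as Glyma.11G027700 had no count with Al, and shows nothing about the pair. The share of all genes called between lines in CK was 7.52% by DESeq2, 1.47% when the compared groups alone were fitted, and 1.92% to 5.04% with 1 library left out (lowest without WT_CK replicate 2, then OX_CK replicate 2 and WT_CK replicate 1 at 1.95% and 2.94%). Under Al it was 9.42% with the compared groups alone and 3.68% to 7.28% with 1 library left out (OX_Al replicate 2 or 3 at 3.68%, WT_Al replicate 2 at 3.71%). For the difference it was 4.01% by DESeq2 and 0.719% to 1.99% with 1 library left out (under 1.1% without WT_CK 2, WT_Al 1 or 2, OX_CK 2 or any OX_Al library). Low depth limits F3H, DFR, ANS and ANR1 above all, which had at most 57 counts each over the 12 libraries.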
